A study of Mus musculus with 27 samples.

Results

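Forkhead (Fox) genes encode transcription factors that share the forkhead domain, a winged-helix fold that places its recognition helix in the major groove of DNA. The genes described here were rows of the 3 deposited count tables whose symbol is Fox followed by a letter from a to s, a number and at most 1 further letter. They are 42 of the 27080 genes listed in at least 1 table. The tables list a gene only if it had at least 1 count in the libraries compared, and 40 of the 42 forkhead genes were in the shGas41-1 table, 40 in the shGas41-2 table and 41 in the embryoid body (EB) table.

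RNA-seq was made from J1 cells, a mouse embryonic stem cell (ESC) line, in which Gas41 (gene symbol Yeats4), a YEATS domain subunit of the Tip60/p400 and SRCAP chromatin complexes, was knocked down (KD) by RNA interference. The KD cells carried lentiviral shGas41-1 (3 libraries) or shGas41-2 (2 libraries), were grown with serum and LIF without feeders, and were harvested 8 days after infection, and they were compared with 3 shCon libraries of J1 cells with a control vector. In a second comparison, J1 cells with the control vector were left undifferentiated with LIF (EB day 0, 2 libraries, replicates 2 and 3) or were allowed to aggregate without LIF for 6 days (EB day 6, 2 libraries, replicates 2 and 3). The shCon libraries serve both KD comparisons, so the results of the 2 shRNAs are not independent of each other, whereas the EB comparison shares no library with them. The infected cells were drug-selected populations and no clone is named, and the study describes its repeats as biological, while the labels do not say which libraries came from separate cultures.

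Forkhead factors act at many steps of development. FoxA proteins can open closed chromatin in endoderm-derived organs, FoxC and FoxF proteins pattern mesoderm, FoxO proteins are held in the cytoplasm when insulin signalling activates Akt, Foxm1 drives the G2/M genes of the cell cycle, Foxj1 directs motile cilia, and Foxh1 brings Smad2 and Smad3 to Nodal target genes. Foxd3 is known for its part in the maintenance of the epiblast and of ESCs. By these known roles the 42 genes were grouped as gut and mesoderm (8 genes), neural, ectoderm and epithelium (13), pluripotency and Nodal (2), FoxO (4), broadly expressed (7), FoxP (4), and cilia, gonad and germline (4).

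The part of the recognition helix that touches DNA is encoded by 30 bases, and these are shown for 7 genes whose changes are described later, because they mark what the family shares and where its members differ. The sequences are from the GENCODE transcripts of the mm9 genome, read 5′ to 3′ on the coding strand, and capitals mark bases that differ from Foxd3. All of these stretches lie in coding exons, and that of Foxo4 is split by an intron that the coordinates span.
Foxd3 (chr4:99323838-99323867, plus strand): tggcagaacagcatccgccacaacctgtcg
Foxd1 (chr13:99125094-99125123, plus strand): tggcagaacagcatccgTcacaacctgtcg
Foxa3 (chr7:19600033-19600062, minus strand): tggcagaacTCcatccgGcaTTCGctgtcC
Foxh1 (chr15:76499680-76499709, minus strand): tggAagGacTCcatccgccacaacctTtcC
Foxo4 (chrX:98450607-98453539, plus strand): tggAagaacTCcatccgTcacaacctgtcC
Foxn4 (chr5:114708680-114708709, minus strand): tggAagaacTCcGtGAgGcacaacctgtcC
Foxr1 (chr9:44242040-44242069, minus strand): tggAagaacaCAGtccgTcacaaTctCAGT
The stretch was found in all 41 forkhead genes that have a protein-coding transcript in that annotation, which lists Foxl1 as a pseudogene. It was located by a residue pattern in which some positions were fixed, so the residues shared at those positions were set by the search. A total of 14 genes, Foxd3, Foxd1, Foxc1, Foxc2, Foxk1 and Foxk2 among them, encode the same 10 residues, and a further 13, among them Foxa3, Foxm1 and all 4 FoxO genes, differ from Foxd3 by 1 residue. Foxr1, Foxr2 and 3 of the FoxP genes lie farthest from Foxd3, with 3 residues changed and, in Foxr1, 10 changed bases. Foxd3 and Foxd4 have the same 30 bases, and Foxd1 has the same residues from 1 altered base.

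Foxr1 and Foxd1 were the forkhead genes upregulated with both shRNAs, and the 250 bases before their start sites are shown for that reason, from RefSeq promoters of the GRCm38.p6 build with each CpG in capitals. RefSeq promoters were matched for 26 of the 42 genes, with 29 start sites.
Foxr1 (chr9:44440869-44441118, minus strand): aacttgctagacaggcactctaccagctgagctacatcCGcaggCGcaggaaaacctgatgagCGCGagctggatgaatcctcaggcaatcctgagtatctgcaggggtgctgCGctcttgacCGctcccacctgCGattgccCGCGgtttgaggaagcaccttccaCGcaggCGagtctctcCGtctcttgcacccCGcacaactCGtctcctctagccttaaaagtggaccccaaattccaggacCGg
Foxd1 (chr13:98353995-98354244, plus strand): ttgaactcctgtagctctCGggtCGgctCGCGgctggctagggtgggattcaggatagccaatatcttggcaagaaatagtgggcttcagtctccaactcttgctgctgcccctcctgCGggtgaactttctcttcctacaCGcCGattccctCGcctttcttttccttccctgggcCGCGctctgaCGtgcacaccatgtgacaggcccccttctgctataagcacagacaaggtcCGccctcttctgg
The Foxr1 window holds 15 CpGs and that of Foxd1 holds 12, beside a median of 17 over the 29 forkhead windows and of 6 over all 32851 windows in the table. The forkhead motif TGTTTAC, searched on both strands, was in 1 of the 29 forkhead windows, that of Foxa1 (3.45%), and in 3.17% of all windows.

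The libraries held between 59224537 and 81524773 counts. Levels are given in CPM (a count scaled to the total of its library), at which 3 counts, taken as the smallest measurable amount, are worth 0.0368 to 0.0507 CPM, and such floors cover counting error only. The targeted gene Yeats4 was at 63.2, 54.5 and 52.1 CPM in shCon, between 3.50 and 4.79 CPM with shGas41-1 and at 8.68 and 7.68 CPM with shGas41-2, and between 43.6 and 50.2 CPM in the EB libraries. Replicates correlated at 0.9947 or more (Pearson, log2 of CPM plus 1) in shCon, shGas41-2, EB day 0 and EB day 6, whereas shGas41-1 replicate 3 reached 0.9934 and 0.9898 with the other shGas41-1 libraries and stood apart. Pluripotency markers summed to between 6740 and 7134 CPM in shCon and to 6654 and 6842 CPM at EB day 0. They summed to between 5583 and 5747 CPM with shGas41-1 and to 6464 and 6373 CPM with shGas41-2. On CPM, which is scaled by library totals alone, every KD library was thus below every shCon and EB day 0 library. With the TMM scaling of the edgeR fits, the median log2 fold change of these 12 genes was -0.21 with shGas41-1. It was 0.03 with shGas41-2, so a loss with both shRNAs is not shown. In the 2 EB day 6 libraries the sums were 1715 and 1341 CPM. The EB day 6 libraries differed in other markers, as endoderm markers summed to 60.2 CPM in replicate 2 and 210.0 CPM in replicate 3, and primitive streak and mesoderm markers to 1288 and 1939 CPM. In bulk libraries, fewer cells of a type and less RNA per cell cannot be told apart.

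The forkhead genes differed widely in level. A total of 24 had a mean of 1 CPM or more over the 12 libraries, 18 lay below, and 7 had 10 counts or fewer in every library. CPM per kilobase of exon allows a rough comparison of genes, as exons were merged over all annotated transcripts, whichever of them the cells express. By this scale, Foxo4 (24.7), Foxh1 (21.8), Foxd3 (19.1), Foxp4 (14.7), Foxk2 (12.2), Foxm1 (12.2), Foxo3 (11.7), Foxo1 (6.35), Foxn2 (5.82) and Foxk1 (4.89) had the highest means over the 12 libraries. In shCon, Foxo4 led with 17.7 CPM per kilobase. Foxd3 led with shGas41-1 (24.6) and shGas41-2 and at EB day 0, and it ranked 10 at EB day 6 with 5.47. Foxh1 (67.9) and Foxo4 (58.7) led at EB day 6. At the other end, Foxb2, Foxe3 and Foxl1 stayed under 0.06 CPM in every library.

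**Figure D1:**
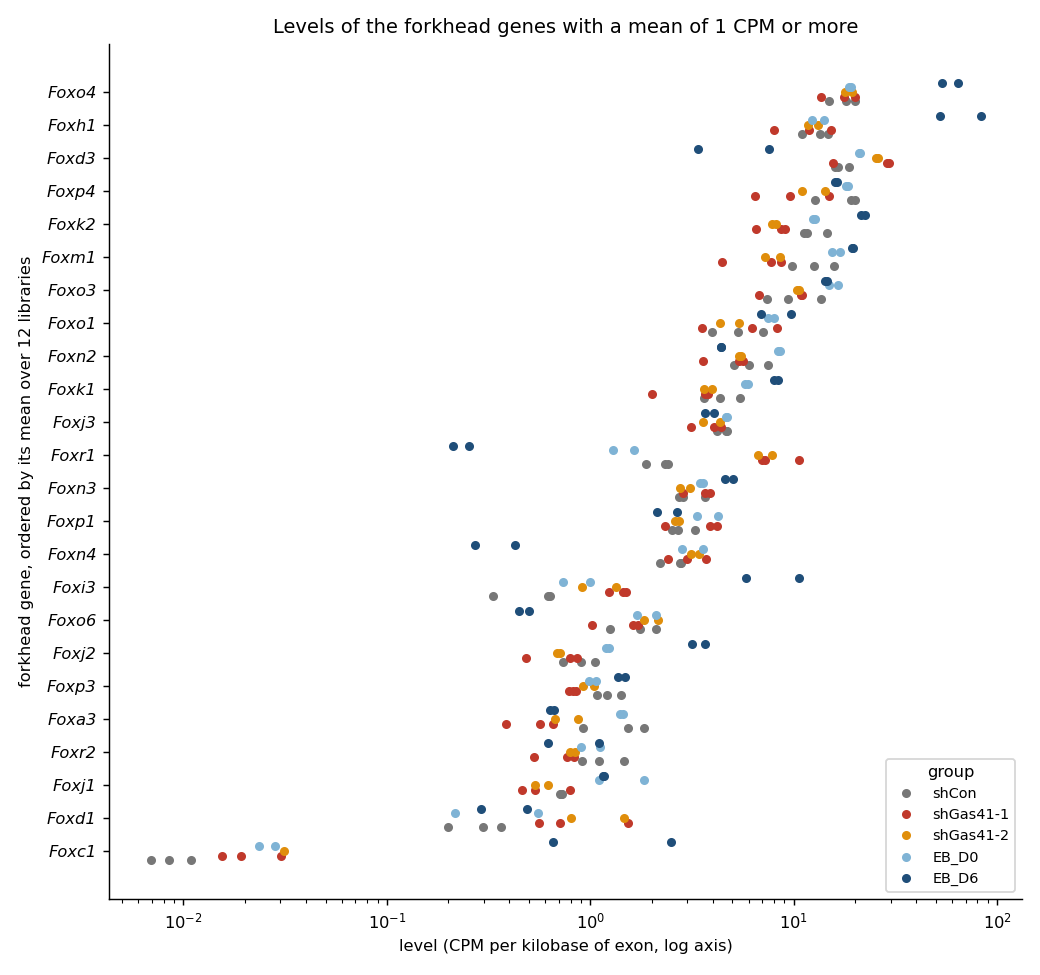
Level of each forkhead gene with a mean of 1 CPM or more, as CPM per kilobase of exon on a log axis, with 1 point per library and 1 colour per group; libraries with no count (Foxc1 in shGas41-2 replicate 1) have no point. Genes are ordered by their mean over 12 libraries, and the dark blue EB day 6 points lie away from the others for Foxh1, Foxo4, Foxi3, Foxj2 and Foxc1 on the high side and for Foxd3, Foxr1, Foxn4 and Foxo6 on the low side.

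Each KD was compared with shCon to ask which forkhead genes depend on Gas41. A gene was called upregulated or downregulated if it changed at least 2-fold with an FDR no higher than 0.05 in edgeR's quasi-likelihood test, adjusted over all genes tested. With shGas41-1, 26 of the 42 forkhead genes had enough counts to be tested, and 4 were upregulated (15.4%, beside 7.9% of the 18274 genes tested) and 1 was downregulated (3.85%, beside 2.4%). With shGas41-2, 28 were tested, 2 were upregulated (7.14%, beside 3.96% of 18405 genes) and 0 were downregulated (beside 0.869%). These shares rest on few genes, and no statement on the family as a whole is drawn from them. The median log2 fold change of the forkhead genes tested was -0.09 with shGas41-1, beside 0.02 over all genes, and -0.0043 with shGas41-2, beside -0.0127. By the FDR alone, 4 forkhead genes were higher and 2 (Foxa3 and Foxk2) lower with shGas41-1, beside 18.5% of all genes in either direction, and 3 (Foxr1, Foxd1 and Foxd3) were higher and 1 (Foxk2) lower with shGas41-2, beside 9.91%. The unadjusted p was under 0.05 for 11 of the 26, beside 35.0% of all genes tested with shGas41-1 (6405 genes), and for 9 of the 28, beside 28.3% with shGas41-2 (5209 genes).

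Foxr1 rose most clearly. This gene is one of the least studied of the family and is grouped here with the gonad and germline genes. It lies on chromosome 9 of mm9 (44241438 to 44248951, minus strand). Its level was 4.68, 4.49 and 3.65 CPM in shCon, 13.6, 14.0 and 20.6 CPM with shGas41-1, and 15.1 and 12.9 CPM with shGas41-2. Every KD library was above every shCon library. The log2 fold change was 2.00 ± 0.23 (SE, FDR = 0.00251, edgeR) with shGas41-1 and 1.80 ± 0.15 (FDR = 0.00145, edgeR) with shGas41-2. Without shGas41-1 replicate 3, the library with the highest value, it was 1.72 (FDR = 0.00121, edgeR). The related gene Foxr2, on chromosome X, went the other way without a call, from 3.72 ± 0.90 CPM (SD, n = 3) in shCon to 2.29 ± 0.52 CPM (SD, n = 3) with shGas41-1 and 2.62 ± 0.10 CPM (SD, n = 2) with shGas41-2.

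Foxd1, a marker of stromal progenitors of the kidney that also patterns the retina, was the other gene upregulated with both shRNAs. It is a single-exon gene on chromosome 13 of mm9 (99124200 to 99126660, plus strand). Its level was 0.490, 0.894 and 0.732 CPM in shCon, 1.76, 3.75 and 1.38 CPM with shGas41-1, and 1.99 and 3.62 CPM with shGas41-2. All KD libraries were above shCon, but they spread more than those of Foxr1. The log2 fold change was 1.76 ± 0.40 (FDR = 0.0182, edgeR) and 2.06 ± 0.34 (FDR = 0.0123, edgeR), and the call was lost without shCon replicate 3 with shGas41-1 (1.78, FDR = 0.0609) and without shGas41-2 replicate 2 with shGas41-2 (1.55, FDR = 0.0988).

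Foxa1 and Foxi3 were upregulated with shGas41-1. Foxa1, a pioneer factor of endoderm, was at 0.321, 0.216 and 0.442 CPM in shCon, 1.66, 1.02 and 0.525 CPM with shGas41-1, and 0.773 and 0.462 CPM with shGas41-2. All KD libraries were above shCon, and the lowest of each shRNA was close to the highest shCon library. The log2 fold change was 1.77 ± 0.44 (FDR = 0.0247, edgeR) with shGas41-1 and 0.99 ± 0.40 (FDR = 0.152, edgeR) with shGas41-2. The call with shGas41-1 was lost without shCon replicate 2 (1.54, FDR = 0.0954) and without shGas41-1 replicate 1 (1.33, FDR = 0.0916). Foxi3, which acts in the ectoderm of the cranial placodes, pharyngeal arches and hair follicles, was at 0.810, 0.793 and 0.428 CPM in shCon, 1.86, 1.93 and 1.58 CPM with shGas41-1, and 1.17 and 1.71 CPM with shGas41-2. The KD and shCon libraries did not overlap. The log2 fold change was 1.48 ± 0.28 (FDR = 0.00982, edgeR) and 1.17 ± 0.34 (FDR = 0.0656, edgeR). With shGas41-2 it was called without shCon replicate 1 (1.32, FDR = 0.0181, edgeR).

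Foxa3, the family member of liver and gut, was downregulated with shGas41-1. It was at 1.87, 3.75 and 3.13 CPM in shCon, 1.34, 1.15 and 0.788 CPM with shGas41-1, and 1.36 and 1.78 CPM with shGas41-2. On CPM without TMM scaling, every KD library was below every shCon library, though shGas41-2 replicate 2 was close to shCon replicate 1. The gap between these 2 libraries was smaller than that between their TMM factors (0.956 and 1.03), so their order depends on the scaling. The log2 fold change was -1.34 ± 0.30 (FDR = 0.0169, edgeR) with shGas41-1 and -0.81 ± 0.31 (FDR = 0.136, edgeR) with shGas41-2. The call was lost without shCon replicate 2 (-1.13, FDR = 0.0706) and without shCon replicate 3 (-1.30, FDR = 0.0553), and without shCon replicate 1 Foxa3 was called with shGas41-2 (-1.04, FDR = 0.00739, edgeR).

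The difference between the shRNAs was tested itself, over the 8 libraries of the KD experiment. Of 29 forkhead genes tested, 0 were called, 0 had an unadjusted p under 0.05, and across all 19146 genes tested 0 were called (0%) in edgeR and 1348 had an unadjusted p under 0.05. For Foxa1 the difference, shGas41-1 minus shGas41-2, was 0.79 with a 95% interval from -0.10 to 1.68. For Foxa3 it was -0.53 (-1.16 to 0.10) and for Foxi3 0.31 (-0.28 to 0.90), so that calls made with 1 shRNA only were not shown to be particular to it. For Foxr1 it was 0.21 (-0.24 to 0.66) and for Foxd1 -0.30 (-1.13 to 0.53).

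**Figure D2:**
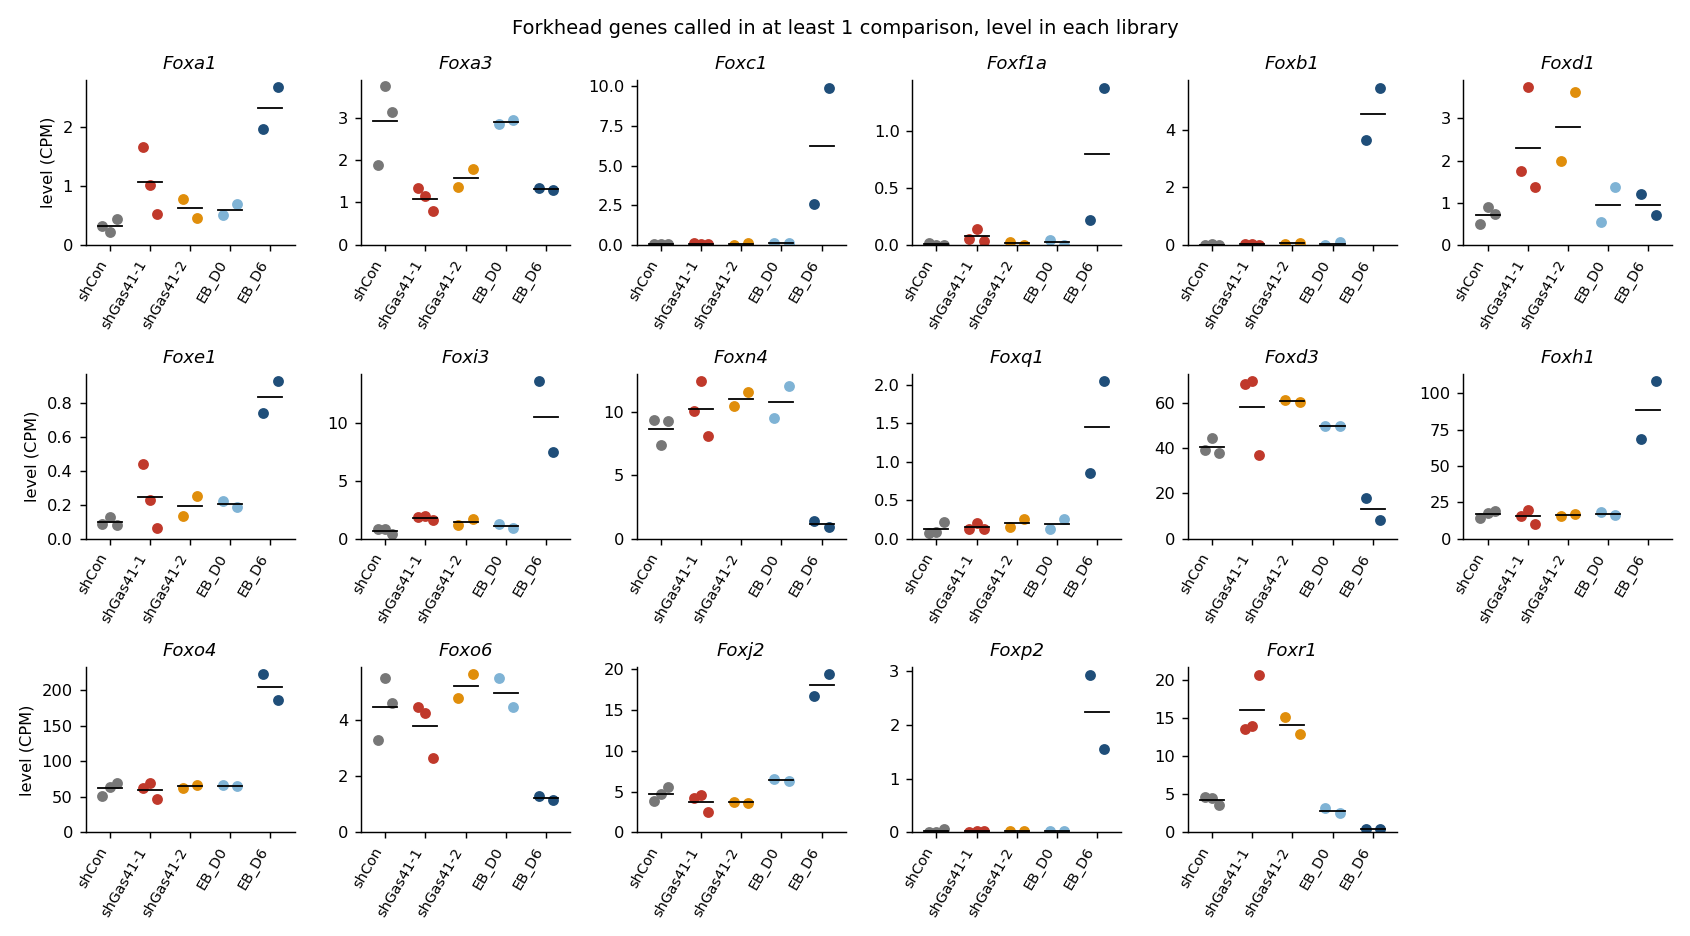
Level in CPM of the 17 forkhead genes called in at least 1 comparison, with 1 point per library, 1 panel per gene with its own axis from 0, and a line at each group mean. Foxr1, Foxd1 and Foxi3 are higher in every KD library than in every shCon library, Foxa3 is lower, and Foxr1, which is high in KD cells, is near 0 at EB day 6.

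The abundant forkhead genes changed less than 2-fold after KD. Foxd3, the ESC regulator, was at 39.2, 44.4 and 37.8 CPM in shCon, 68.1, 69.8 and 37.1 CPM with shGas41-1, and 61.3 and 60.4 CPM with shGas41-2. With shGas41-1, replicates 1 and 2 were above shCon and replicate 3 was below it, and the log2 fold change of 0.59 ± 0.21 did not pass (FDR = 0.0814, edgeR). Without replicate 3 it was 0.80 (FDR = 0.00339, edgeR). With shGas41-2 the log2 fold change was 0.67 ± 0.11 (FDR = 0.0107, edgeR), under the 2-fold limit, and it did not pass without shGas41-2 replicate 1 (FDR = 0.093, edgeR) or replicate 2 (FDR = 0.104, edgeR). Foxh1 was between 14.3 and 19.2 CPM in shCon, between 10.4 and 19.9 CPM with shGas41-1 and at 15.4 and 17.3 CPM with shGas41-2, and its groups overlapped.

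Foxk2, which with Foxk1 represses autophagy genes and binds the deubiquitinase BAP1, passed the FDR with both shRNAs at less than 2-fold. It was at 62.5, 64.9 and 81.3 CPM in shCon, 50.8, 48.6 and 36.4 CPM with shGas41-1 and 45.7 and 44.0 CPM with shGas41-2. The groups did not overlap, and the log2 fold change was -0.55 ± 0.15 (FDR = 0.0391, edgeR) and -0.55 ± 0.13 (FDR = 0.0413, edgeR). It passed with shGas41-1 in 1 of the 6 fits that leave out 1 library, that without shCon replicate 1, and its FDR was between 0.0501 and 0.142 (edgeR) in the others. With shGas41-2 it did not pass without shCon replicate 2 or either shGas41-2 replicate (FDR between 0.0987 and 0.224, edgeR). Foxm1, the G2/M factor, was at 53.7, 69.5 and 86.9 CPM in shCon, 42.6, 47.9 and 24.3 CPM with shGas41-1 and 39.9 and 46.9 CPM with shGas41-2. Its KD libraries were all below shCon, but the log2 fold changes of -0.80 ± 0.24 (FDR = 0.052, edgeR) and -0.61 ± 0.20 (FDR = 0.09, edgeR) did not pass. Without shCon replicate 1 both passed at less than 2-fold (-0.97, FDR = 0.0301, and -0.76, FDR = 0.00202, edgeR), as did the first without shGas41-1 replicate 2 (-0.98, FDR = 0.0348, edgeR). Under DESeq2 (FDR = 0.0121 and 0.0232) and edgeR's exact test (FDR = 0.0119 and 0.0315) both passed at less than 2-fold. Neither passed with other scaling or halved counts. Without a filter on low counts or in 1 fit of all 12 libraries only the first passed, and with the replicate number as a block only the second. Foxp4 was at 62.7, 94.0 and 98.8 CPM in shCon, 47.5, 73.2 and 31.7 CPM with shGas41-1, and 53.9 and 70.3 CPM with shGas41-2, with overlapping groups, and without shGas41-1 replicate 2 it was downregulated with shGas41-1 (-1.01, FDR = 0.0227, edgeR).

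Library shGas41-1 replicate 3 had the lowest CPM, without TMM scaling, of all 12 libraries for many forkhead genes. Among them were Foxm1, Foxp4, Foxk1, Foxk2, Foxn2, Foxo1, Foxo3, Foxo4, Foxh1, Foxj1, Foxj2, Foxj3, Foxr2 and the downregulated gene Foxa3. The share of all genes with their lowest CPM there was not counted, so this is not a trait of the family. This library had a TMM factor of 0.919 in the edgeR fit, beside 1.02 to 1.04 in shCon. Without it, 5 forkhead genes were upregulated with shGas41-1, as Foxe1 then had enough counts to be tested (1.76, FDR = 0.0419, edgeR), and 1 was downregulated. The FoxO genes, which answer to insulin and growth factor signals, were close to shCon. Foxo3 was between 53.4 and 97.6 CPM in shCon, between 48.5 and 79.6 CPM with shGas41-1 and at 74.8 and 76.9 CPM with shGas41-2, and Foxo1 was between 22.0 and 39.2 CPM, between 19.7 and 45.8 CPM and at 24.0 and 29.9 CPM. None of the 4 FoxO genes was called with either shRNA or had an unadjusted p under 0.05 (edgeR), and their log2 fold changes lay between -0.17 and 0.31.

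EB day 6 was compared with EB day 0 to describe the same genes in differentiation. Of 34 forkhead genes tested, 11 were upregulated (32.4%, beside 16.6% of the 18287 genes tested) and 5 were downregulated (14.7%, beside 14.7%). By the FDR alone, 16 were higher and 7 lower, beside 58.9% of all genes in either direction. The median log2 fold change of the forkhead genes tested was 0.45, beside -0.0028 over all genes. A gene that is high only at EB day 6 passes the count filter through that group, so the counts are not a test of the family. The upregulated genes were Foxa1, Foxc1 and Foxf1a of the gut and mesoderm group, Foxb1, Foxe1, Foxi3 and Foxq1 of the neural and ectoderm group, and Foxh1, Foxo4, Foxj2 and Foxp2. The downregulated genes were Foxa3, Foxd3, Foxn4, Foxo6 and Foxr1.

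**Figure D3:**
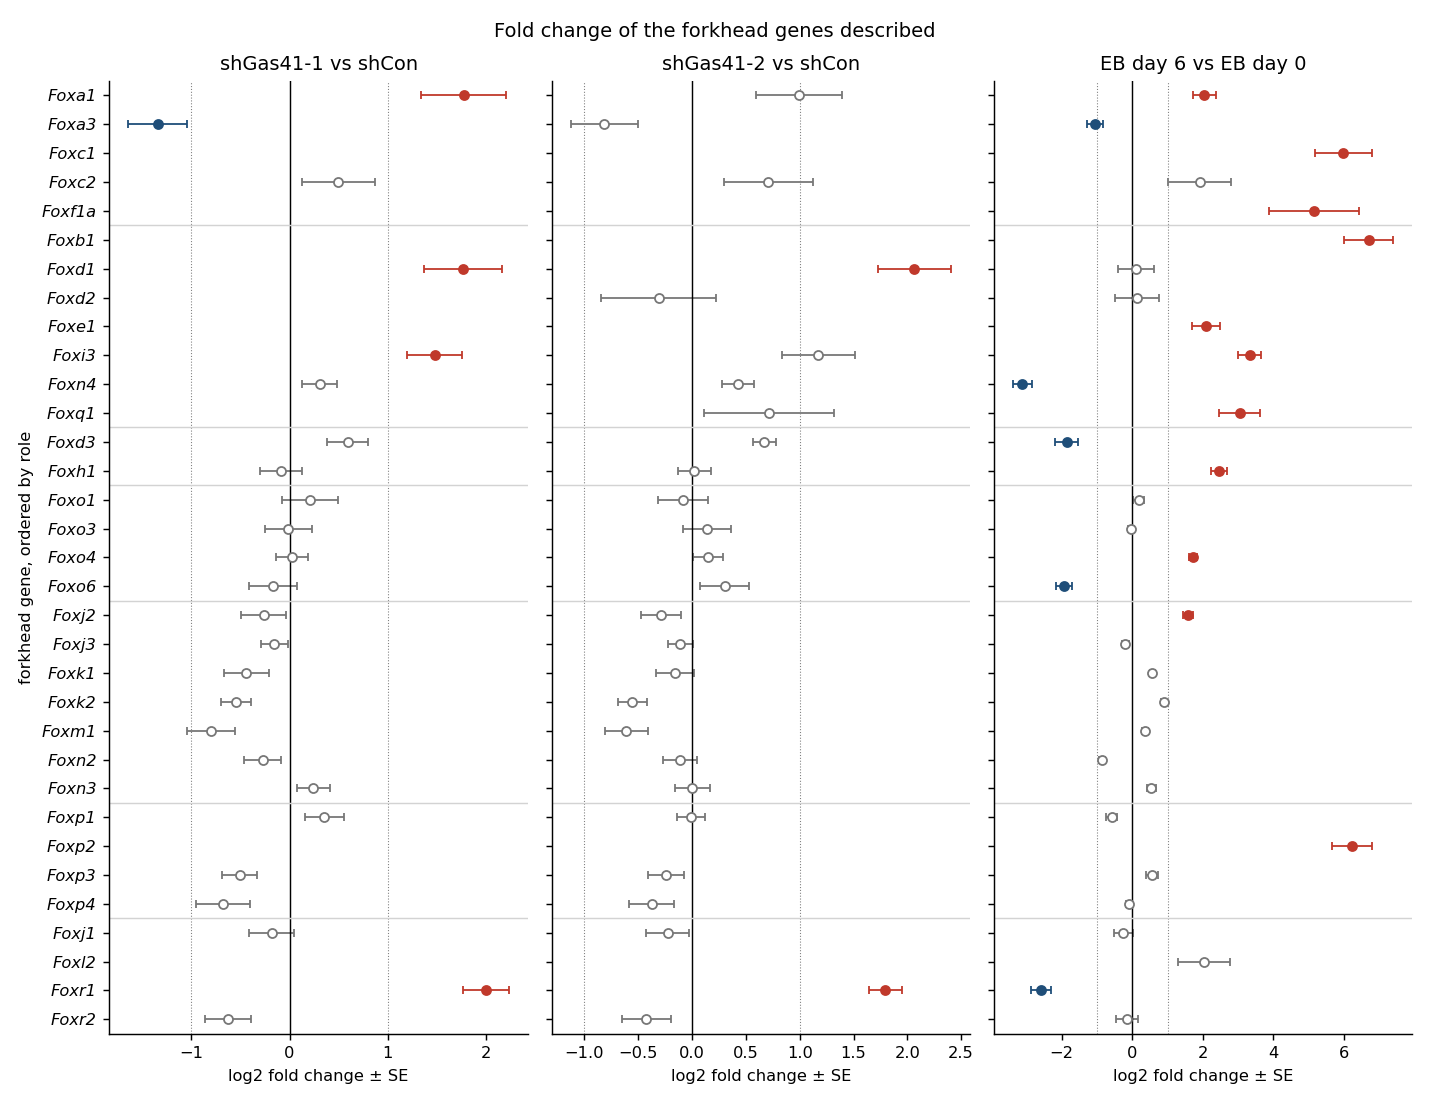
Log2 fold change ± SE of the forkhead genes tested that are described, by comparison, with the genes ordered by role between grey lines; filled red points are upregulated, filled blue points downregulated and open points not called, dotted lines mark a 2-fold change, and the 3 panels have different horizontal scales. With the shRNAs most points lie within the dotted lines, and at EB day 6 the points of Foxb1, Foxc1, Foxf1a and Foxp2 lie above 5.

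Of the mesoderm genes, Foxc1, which acts in paraxial mesoderm and neural crest, had 8 and 6 counts at EB day 0 (0.112 and 0.0942 CPM) and reached 2.60 and 9.92 CPM at EB day 6. The pooled ratio was 60.7 (95% interval 36.0 to 112, counting error only), and the log2 fold change was 5.98 ± 0.81 (FDR = 0.00105, edgeR). Foxf1a, of the lateral plate mesoderm around the gut, had 3 counts in all at EB day 0 and was at 0.222 and 1.38 CPM at EB day 6, a pooled ratio of 36.3 (12.1 to 179). Foxc2, the partner of Foxc1 in vessels and somites, was at 0.420 and 0.377 CPM at EB day 0 and at 0.281 and 2.53 CPM at EB day 6, and it was not called (log2 fold change 1.91 ± 0.90, FDR = 0.112, edgeR), though it was without EB day 6 replicate 2 (2.76, FDR = 1.73e-06, edgeR). For all 3 genes EB day 6 replicate 3 was above replicate 2, as it was for the summed endoderm markers and, by less, for the streak and mesoderm markers, and the part of those cells in the differences was not tested. Foxa1 rose from 0.504 and 0.690 CPM to 1.97 and 2.68 CPM (2.05 ± 0.32, FDR = 0.00193, edgeR), while Foxa3 fell from 2.86 and 2.95 CPM to 1.35 and 1.29 CPM (-1.05 ± 0.22, FDR = 0.0071, edgeR). Without EB day 0 replicate 3 the calls of Foxc1 (5.88, FDR = 0.0761), Foxf1a (4.29, FDR = 0.175) and Foxa3 (-1.02, FDR = 0.0645) were lost, as was that of Foxf1a without EB day 0 replicate 2 (8.78, FDR = 0.0608).

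In the neural and ectoderm group, Foxb1, a gene of the diencephalon and early neural tube, had 0 and 6 counts at EB day 0 and was at 3.67 and 5.48 CPM at EB day 6, a pooled ratio of 103 (47.2 to 282). Foxi3 rose from 1.27 and 0.942 CPM to 13.6 and 7.45 CPM (3.32 ± 0.34, FDR = 0.000318, edgeR). Foxq1, of hair follicle and stomach, rose from 0.126 and 0.251 CPM to 0.858 and 2.05 CPM (3.04 ± 0.58, FDR = 0.00469, edgeR). These groups did not overlap. Foxe1, a thyroid factor, was at 0.224 and 0.188 CPM and then 0.740 and 0.931 CPM (2.09 ± 0.39, FDR = 0.00421, edgeR). Foxn4, which specifies retinal and spinal interneurons, stood against the group and fell from 9.51 and 12.1 CPM to 1.44 and 0.916 CPM (-3.11 ± 0.26, FDR = 0.000145, edgeR). Its level in shCon, 9.37, 7.43 and 9.31 CPM, was like that at EB day 0. Without EB day 0 replicate 3 the calls of Foxe1 (1.98, FDR = 0.0598) and Foxq1 (3.60, FDR = 0.0761) were lost, as was that of Foxq1 without EB day 0 replicate 2 (2.61, FDR = 0.0532). Exons of Foxb1, Foxe1 and Foxq1 overlap a gene on the opposite strand in the annotation, and the library kit does not keep the strand.

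Foxd3 and Foxh1 moved apart. Foxd3 fell from 50.0 and 49.8 CPM to 17.9 and 8.06 CPM (-1.86 ± 0.32, FDR = 0.00305, edgeR; without EB day 0 replicate 3, -1.86 and FDR = 0.0919), whereas Foxh1, the Smad partner, rose from 18.4 and 16.1 CPM to 68.6 and 109 CPM (2.45 ± 0.22, FDR = 0.000199, edgeR). Among the FoxO genes, Foxo4 rose from 66.8 and 64.8 CPM to 223 and 186 CPM (1.72 ± 0.10, FDR = 3.72e-05, edgeR), and Foxo6, known from the brain, fell from 5.51 and 4.46 CPM to 1.30 and 1.16 CPM (-1.93 ± 0.22, FDR = 0.000555, edgeR). Foxo3, at 108 and 118 CPM and then at 103 and 105 CPM, and Foxo1, at 44.4 and 41.6 CPM and then at 53.7 and 38.4 CPM, were not called. Foxj2, a widely expressed activator, rose from 6.54 and 6.31 CPM to 16.7 and 19.4 CPM (1.58 ± 0.14, FDR = 0.00018, edgeR). Foxp2, of the developing brain and lung, had 2 counts in each EB day 0 library and was at 2.91 and 1.54 CPM at EB day 6, a pooled ratio of 75.1 (29.0 to 277).

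The other broadly expressed genes, except Foxj3 (log2 fold change -0.19, FDR = 0.11, edgeR), passed the FDR at less than 2-fold. On the log2 scale Foxk1 (0.57), Foxk2 (0.89), Foxm1 (0.35) and Foxn3 (0.54) were up and Foxn2 (-0.86) was down. In 1 fit of all 12 libraries Foxk1 (0.59, FDR = 0.0624, edgeR) and Foxm1 (0.38, FDR = 0.254, edgeR) did not pass. Foxm1 (0.29) and Foxn3 (0.52) did not pass without EB day 0 replicate 3, nor did Foxn3 (0.54) without EB day 0 replicate 2. Foxk2 was at 71.3 and 69.7 CPM and then 120 and 126 CPM, Foxm1 at 92.9 and 84.4 CPM and then 108 and 106 CPM, and Foxk1 at 44.6 and 42.8 CPM and then 59.6 and 62.7 CPM. Foxn2, of unclear role, was at 63.3 and 61.4 CPM and then 32.5 and 32.2 CPM, and Foxp4 was at 88.7 and 91.3 CPM and then 79.0 and 80.4 CPM. Foxr1 fell from 3.18 and 2.50 CPM to 0.488 and 0.407 CPM (-2.58 ± 0.29, FDR = 0.00047, edgeR).

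The KD and EB changes can be set side by side, since they share no library. Foxa1 and Foxi3 were upregulated with shGas41-1 and at EB day 6, and Foxa3 was downregulated in both. Foxr1 was upregulated with both shRNAs and downregulated at EB day 6. Foxd1 was upregulated with both shRNAs, and at EB day 6 it was at 1.20 and 0.713 CPM beside 0.532 and 1.37 CPM at EB day 0, with a log2 fold change of 0.10 (95% interval -0.89 to 1.09). Of the genes called at EB day 6, Foxb1, Foxc1, Foxe1, Foxf1a and Foxp2 had too few counts to be tested with either shRNA, as none exceeded 0.44 CPM in a KD library. Foxd3, Foxh1, Foxo4, Foxj2, Foxn4 and Foxo6 were tested with both shRNAs and not called, and Foxq1 was tested with shGas41-2 and not called.

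**Figure D4:**
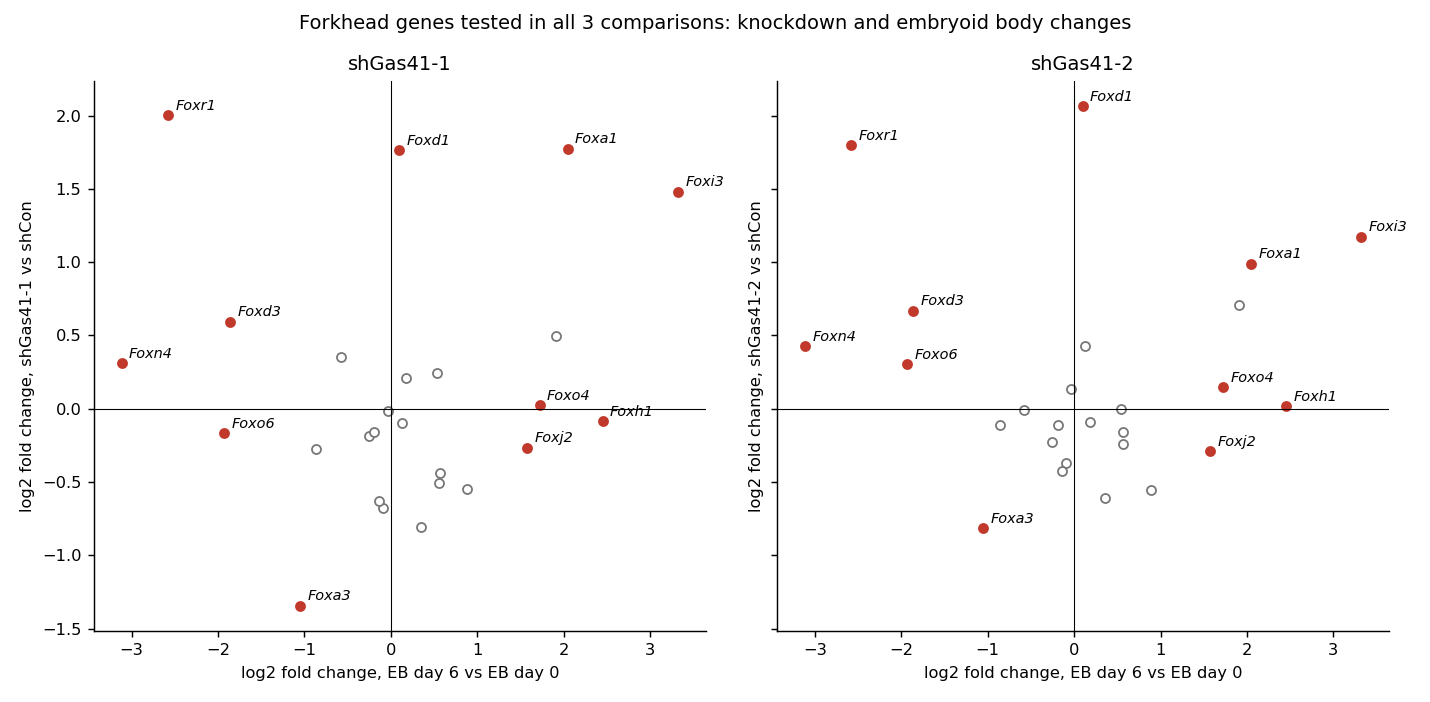
Log2 fold change with shGas41-1 (left) and shGas41-2 (right) against that at EB day 6, for the 26 forkhead genes tested in all 3 comparisons; red points with names are genes called in the KD or EB comparison of that panel and open points are not called. Foxa1 and Foxi3 lie at the upper right, Foxa3 at the lower left and Foxr1 at the upper left of both panels.

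The genes of the pathways around the forkhead factors were counted in the same way, and these lists were chosen with results of these data known. Their counts stand beside calls for 7.9% of all genes tested up and 2.4% down with shGas41-1, 3.96% and 0.869% with shGas41-2, and 16.6% and 14.7% at EB day 6. None of the 18 Foxm1 targets of G2/M was called in any of the 3 comparisons, and their median log2 fold change was -0.21 with shGas41-1 and -0.12 with shGas41-2, beside a level of Foxm1 that was lower in every KD library. Of 19 FoxO targets tested, Sesn3 (1.26) and Bcl2l11 (1.08) were upregulated with shGas41-1, 0 were called with shGas41-2, and 8 rose and 4 fell at EB day 6, among them Bnip3 (3.97), Klf2 (-3.05) and Pdk4 (-2.70) on the log2 scale. Bcl2l11 was not called without shGas41-1 replicate 2 (0.98), and without replicate 3 Cdkn1b was downregulated (-1.05). Of 17 upstream kinases and regulators of FoxO, Sgk2 was downregulated with shGas41-1 (-2.54), also with any 1 library left out, and with shGas41-2 (-1.16). The latter call was lost without shCon replicate 2, shCon replicate 3 or either shGas41-2 replicate, in 4 of 5 such fits. At EB day 6, 4 of the 17 rose and 3 fell. Of 14 Foxh1 partners and targets tested with shGas41-1, 1 was upregulated and 1, Eomes, downregulated, neither of which was called without shCon replicate 2, shCon replicate 3, shGas41-1 replicate 1 or shGas41-1 replicate 3, and 0 of 14 were called with shGas41-2. At EB day 6, where Foxh1 rose, 10 of the 15 were upregulated and 0 downregulated (median 1.41), Mixl1 (8.93) and Cer1 (8.14) among them. The calls of Cer1 and of a further gene of this list were lost without EB day 0 replicate 3, a fit that leaves 1 EB day 0 library.

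Of the 12 motile cilia targets of Foxj1 tested after KD, Tekt1 was downregulated with shGas41-1 (-1.42), also with any 1 library left out, and with shGas41-2 (-1.08), a call lost without either shGas41-2 replicate. At EB day 6, 3 of 13 rose and 7 fell, and 1 rose without EB day 0 replicate 3 or without EB day 6 replicate 3. Foxj1 itself was at 2.90 and 4.82 CPM at EB day 0 and 3.03 and 3.07 CPM at EB day 6 and was not called. Of 10 Hedgehog genes, Hhip was upregulated with shGas41-1 (1.10), a call lost without shCon replicate 2, shCon replicate 3, shGas41-1 replicate 1 or shGas41-1 replicate 2, and 2, Hhip and Dhh, were upregulated without shGas41-1 replicate 3. With shGas41-2, 0 were called, and at EB day 6, 3 rose and 6 fell, Hhip (-5.07) and Gli1 (-4.46) among those that fell.

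Lineage markers were counted beside them. With shGas41-1, 1 of 10 endoderm genes rose (Gata6) and 1 fell (Hnf4a), 0 of 10 streak and mesoderm genes rose and 2 fell (Tbx6 and Eomes), 3 of 8 neural and ectoderm genes rose, among them Pax6 (2.43) and Fgf5, and of 12 pluripotency genes Dppa3 rose and Esrrb, Klf4 and Tfcp2l1 fell. The calls of Pax6, Dppa3 and Tfcp2l1 held with any 1 library left out. Those of Gata6, Hnf4a, Tbx6, Eomes, Fgf5, Esrrb and Klf4 were lost without shCon replicate 3 and, except for Klf4, also without shCon replicate 2. Of the 6 fits that leave out 1 library, 0 kept the call of Fgf5, 1 that of Tbx6 and 2 those of Eomes and Esrrb. The call was kept in 3 fits for Gata6, in 4 for Hnf4a and in 5 for Klf4. Without shGas41-1 replicate 3, 2 streak and mesoderm genes were called up (Tbx1 and Twist1) and 1 down (Tbx6), so that no direction of this list is drawn. With shGas41-2, 1 endoderm gene rose (Sox7), a call lost without shCon replicate 3 or either shGas41-2 replicate, and 0 of 10 streak and mesoderm, 0 of 7 neural and 0 of 12 pluripotency genes were called. Of the 8 fibroblast markers, 2 had enough counts to be tested after KD, and Thy1 fell with shGas41-1 (-1.10), a call lost without shCon replicate 3. Endoderm markers summed to between 10.4 and 11.9 CPM in shCon, to 14.1, 13.2 and 9.43 CPM with shGas41-1 and to 13.1 and 14.6 CPM with shGas41-2, so that every KD library but shGas41-1 replicate 3 was above shCon, and their part in the changes of Foxa1 and Foxa3 was not tested.

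The remaining genes were at low levels or showed no call. Foxe3, Foxl1, Foxb2, Foxs1, Foxd4, Foxi2, Foxn1 and Foxf2 were tested in none of the 3 comparisons and stayed under 0.16 CPM in every library. Foxd2 and Foxl2 were at 0.465 CPM or less in every library, and Foxl2, the ovarian factor, was at 0.0280 and 0.188 CPM at EB day 0 and 0.355 and 0.465 CPM at EB day 6 without a call (FDR = 0.0519, edgeR), though it was called without EB day 0 replicate 3 (3.88, FDR = 0.0453, edgeR) or EB day 6 replicate 2 (2.22, FDR = 0.0288, edgeR). Foxj3 was between 33.7 and 50.9 CPM, Foxp1 between 25.3 and 50.5 CPM, Foxn3 between 7.77 and 14.3 CPM and Foxp3 between 3.10 and 5.86 CPM over all 12 libraries, and none of them was called. Foxp3, the regulatory T cell factor, overlaps exons of 3 other genes in the annotation. Its counts may be too low or too high, depending on how reads of shared exons were assigned, which was not checked. Exons of Foxd3, Foxj2, Foxk2, Foxm1, Foxo1 and Foxp1 share between 26 and 674 bases with another annotated gene.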

How the data were processed

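RNA-seq counts of 12 libraries of J1 mESCs were analysed, and the 15 ChIP-seq libraries were not analysed here. The authors mapped reads to the mm9 genome with TopHat2 2.0.10 and counted them per gene with HTSeq, and what was deposited are raw counts, not normalized. Log2 fold changes, p-values and FDR that the authors deposited beside them are their own edgeR results and were not used. In the EB table, columns called ESC were read as EB day 0. Genes were joined by Ensembl identifier.

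Each comparison used only its own libraries, in R 4.3.3 with edgeR 4.0.16: filterByExpr (minimum count 10, minimum total count 15), TMM scaling and the quasi-likelihood test, adjusted over all genes tested by Benjamini-Hochberg. Calls needed a 2-fold change with an FDR no higher than 0.05, the thresholds of the study. The script was tested on simulated data. Library totals ranged from 59224537 to 81524773 counts. CPM used these totals, and exon length, positions and coding sequence came from GENCODE vM1 (mm9). Intervals of fold changes and count ratios are nominally 95%. The former use the fitted SE with a normal quantile, so they are too narrow for so few libraries. The latter are exact for counts.

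The members and lists were chosen with earlier results of these data known. Described with values for each library are all forkhead genes called in a comparison with a control and the 10 with the highest level per kilobase; from each pathway list, up to 3 called genes with the largest change are named. 1 gene that fits the symbol rule was left out, and some other genes and sequences are not reported here, though counts over lists include them. Alternatives were other scaling, no filter, DESeq2 1.42.0, edgeR's exact test, FDR alone, halved counts, all 12 libraries in 1 fit, the replicate block and each library left out.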

Additional observations from a re-analysis of the deposited data

How the results depend on the processing

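The 23 calls of single forkhead genes kept direction and threshold under RLE size factors in the edgeR fit, library size alone and no filter on low counts. They also did so under DESeq2, edgeR's exact test and 1 fit of all 12 libraries. So did the 22 that halved counts could give, and none reversed under any alternative. Replicate numbers are shared between groups, but the numbers were not taken as pairs. Deviations of same-numbered libraries correlated at 0.005, 0.14 and -0.39 for shGas41-1 and shCon, where different-numbered libraries ranged from -0.45 to 0.38. The same-numbered values were 0.34 and 0.24 for shGas41-2 and shCon, which are only 2 pairs, and 0.055 at EB day 6. Deviations in a group of 2 libraries mirror each other, so these values cannot show whether the numbers are pairs. With the replicate block, 0 forkhead genes instead of 1 were downregulated with shGas41-1, as Foxa3 (-1.31, FDR = 0.0636, edgeR) lost its call, and Foxa1 (1.69, FDR = 0.0775, edgeR) lost its own. With shGas41-2 the block gave 3 upregulated genes instead of 2, as Foxa1 (1.26, FDR = 0.0137, edgeR) was called, and at EB day 6 it gave 12 instead of 11, with Foxl2 (2.17, FDR = 0.0391, edgeR). No filter, DESeq2, edgeR's exact test and 1 fit of all 12 libraries also gave 3 with shGas41-2, in each case with Foxi3 (log2 fold change 1.17 to 1.18). At EB day 6, RLE size factors and edgeR's exact test also gave 12, with Foxl2, which halved counts called too. The fit of all 12 libraries gave 13 there, with Foxl2 (2.04, FDR = 0.0297, edgeR) and Foxc2 (1.93, FDR = 0.0379, edgeR). By FDR alone, 2 were lower with shGas41-1 and 1 with shGas41-2. Leaving out each library in turn gave 3 to 5 upregulated and 0 to 2 downregulated genes with shGas41-1, 1 to 3 and 0 to 1 with shGas41-2, and 8 to 13 and 3 to 5 at EB day 6. Without EB day 0 replicate 3, calls were lost for Foxa3 (-1.02, FDR = 0.0645), Foxc1 (5.88, FDR = 0.0761), Foxd3 (-1.86, FDR = 0.0919), Foxe1 (1.98, FDR = 0.0598), Foxf1a (4.29, FDR = 0.175) and Foxq1 (3.60, FDR = 0.0761), all edgeR, and without EB day 0 replicate 2 for Foxf1a (8.78, FDR = 0.0608) and Foxq1 (2.61, FDR = 0.0532). A lone library in a group was assumed to vary like the other group. The cause of these losses was not tested beyond the fewer libraries. TMM scaling moved no mean CPM of a named gene by more than 4.78%. Genes with fewer than 10 counts were limited by depth.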
